A study of Mus musculus with 8 samples.

Results

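In mouse molar tooth germs kept in culture, 9 genes of the bone morphogenetic protein (BMP) and growth and differentiation factor (GDF) ligand family were followed by RNA-seq. The genes were Bmp2, Bmp3, Bmp4, Bmp5, Bmp6, Bmp7, Gdf5, Gdf6 and Gdf10. They were taken by name from a table of 35896 genes, and all 9 passed the filter on low counts, as did 19022 genes in all. Molar germs of BRE-GFP embryos, which carry a fluorescent reporter of BMP-responsive transcription, were kept in serum-supplemented DMEM for 1 day. E12.5 germs received SB431542, which blocks the type I receptors for TGF-beta and activin, or SIS3, which blocks Smad3. E13.5 germs with DMSO, the solvent, served as a stage control, and E12.5 germs with DMSO were the control of both inhibitors. All groups carry the reporter and were cultured, so none stands for an uncultured germ. Whole germs were used, so in these bulk samples fewer cells of a type and less RNA per cell cannot be told apart. The labels give no doses.

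Each group has 2 deposited columns of counts. In the SB431542, E13.5 DMSO and E12.5 DMSO groups the totals of the paired columns differed by 0.00212%, 0.00749% and 0.00168%, against 44.5% in the SIS3 pair. Over genes with 1 transcript, the median squared difference between paired columns was 1.25, 1.22 and 1.3 times that of dividing 1 library at random, against 8.05 in the SIS3 pair. It was larger for genes with 2 to 6 transcripts (1.83, 1.48 and 1.87 times, against 9.99) and for genes with 7 or more (3.11, 2.36 and 3.12 times, against 16). The labels do not say whether such columns are divisions of 1 library. Each of these 3 pairs was summed and counted as 1 library, and SIS3 kept 2 libraries. Totals were 28161788 counts for SB431542, 5995709 and 9427262 for SIS3, 17519118 for E13.5 DMSO and 30975010 for E12.5 DMSO. TruSeq chemistry was used for the pair of SIS3 libraries and the SMARTer low-input kit for all others, so SIS3 and kit cannot be told apart in any comparison that holds SIS3. Nothing says that the SIS3 libraries came from separate cultures, so p-values measure only the spread between these libraries, which may be technical. All 15 mesenchyme markers found in the table (Msx1, Pax9, Barx1 and others) were above 0 in every library and summed to between 6332 and 17584 CPM, which are counts scaled by library size. The 20 epithelial markers (Epcam, Krt14 and others) summed to between 65.9 and 419.1 CPM, and 2 of them were at 0 in SIS3 library 1 and in the E13.5 library.

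BMP and GDF ligands are secreted as dimers that are cleaved from precursors, and they bind paired type I and type II receptor kinases, which phosphorylate Smad1, Smad5 and Smad9. These join Smad4 and act on genes such as the Id and Msx genes. In the early tooth, Bmp4 is known first from the epithelium and then from the condensing mesenchyme, where it acts together with Msx1. TGF-beta and activin ligands act through Smad2 and Smad3, the branch that SB431542 and SIS3 block.

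The 250 bases before the RefSeq start (GRCm38.p6) are shown for Gdf10, the member with the largest difference under SIS3, for Bmp4, the member with the highest level, and for Bmp5, the member with the next largest difference after Gdf10. RefSeq entries matched 4 of the 9 members. The letters are 5′ to 3′ on the strand of the gene, and capitals mark matches, on either strand, to CAGAC (the core Smad-binding element, GTCTG on the other strand), GGCGC (a GC-rich Smad site, GCGCC on the other strand) or GTCTAGAC (the Smad palindrome). The Gdf10 window lies at chr14:33923337-33923586 on the plus strand, the Bmp4 window at chr14:46390670-46390919 on the minus strand and the Bmp5 window at chr9:75775115-75775364 on the plus strand.
Gdf10: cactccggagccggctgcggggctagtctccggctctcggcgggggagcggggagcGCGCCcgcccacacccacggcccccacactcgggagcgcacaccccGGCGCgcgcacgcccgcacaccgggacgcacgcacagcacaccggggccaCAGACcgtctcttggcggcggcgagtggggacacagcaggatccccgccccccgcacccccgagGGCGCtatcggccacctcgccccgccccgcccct
Bmp4: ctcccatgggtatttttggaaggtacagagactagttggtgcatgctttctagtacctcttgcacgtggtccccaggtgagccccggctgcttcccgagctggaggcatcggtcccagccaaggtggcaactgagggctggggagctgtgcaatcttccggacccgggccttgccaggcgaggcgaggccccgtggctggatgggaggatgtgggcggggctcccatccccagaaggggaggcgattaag
Bmp5: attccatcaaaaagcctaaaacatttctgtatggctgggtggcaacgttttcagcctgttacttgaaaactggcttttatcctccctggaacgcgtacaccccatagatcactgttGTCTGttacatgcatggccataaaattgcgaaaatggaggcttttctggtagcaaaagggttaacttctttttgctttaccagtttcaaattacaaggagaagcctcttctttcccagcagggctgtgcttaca

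The Gdf10 window held 3 matches to GGCGC and 1 to CAGAC and was 78.8% G and C. The Bmp4 window, at 63.2% G and C, held no match, and the Bmp5 window, at 42.8%, held 1 match to CAGAC. The window of Bmp6, the other matched member, is not printed. It was 68.8% G and C and held 1 match to CAGAC and 1 to GGCGC. Among 32817 promoter windows of this length, 42.2% held CAGAC, 32% held GGCGC, 10.6% held GGCGC at least 3 times and 0.168% held GTCTAGAC. A match describes letters only, and a window without one tells nothing of a factor.

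Per kilobase of the longest coding transcript, Bmp4 was the highest of the 9 in every library. Its level was 32.8 CPM per kb with SB431542, 28.0 and 21.2 with SIS3, 43.2 in E13.5 DMSO and 39.1 in E12.5 DMSO. Bmp6 came next in every library except SIS3 library 2, where Bmp2 was above it. In E12.5 DMSO the order below Bmp4 was Bmp6 at 14.8 CPM per kb, Gdf10 at 11.8, Bmp2 at 10.2, Bmp3 at 3.73, Bmp7 at 3.11, Bmp5 at 2.82, Gdf6 at 0.85 and Gdf5 at 0.682. The span from the highest to the lowest of these ligand genes was thus wide, and a few genes made up most of the summed level. In SIS3, the group with 2 libraries, the ranges of Bmp2 and Bmp6 overlapped, as did those of Bmp7 and Gdf10, and those of Bmp5, Gdf5 and Gdf6. These neighbours in the order did not differ beyond the spread of the SIS3 libraries. The other groups have 1 library each and give no such spread.

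Summed over the 9 genes, the level was 79.3 CPM per kb with SB431542, 58.5 and 48.1 with SIS3, 87.4 in E13.5 DMSO and 87.2 in E12.5 DMSO. Both SIS3 libraries were the lowest. Bmp4 held 41.4% of the sum with SB431542, 47.8% and 44% with SIS3, 49.4% in E13.5 DMSO and 44.9% in E12.5 DMSO. Gdf10 held 7.14% with SB431542, 4.49% and 3.85% with SIS3, 14% in E13.5 DMSO and 13.6% in E12.5 DMSO. The share of Bmp4 thus stayed near the same level across libraries, while that of Gdf10 was lower in all 3 inhibitor libraries than in either DMSO library.

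**Figure D1:**
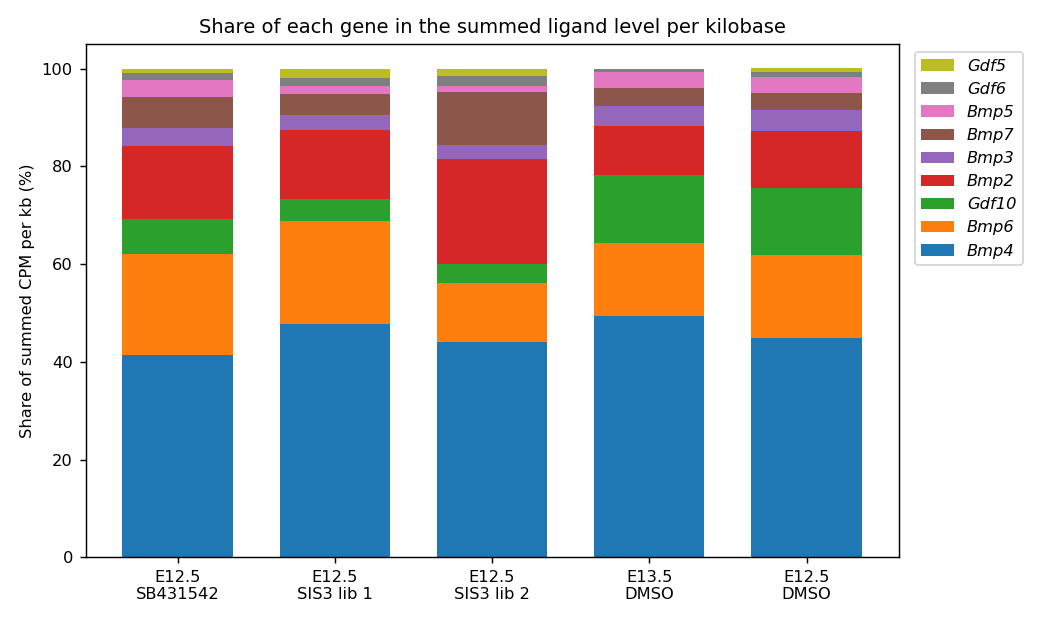
Stacked bars give each gene's share, in percent, of the summed CPM per kilobase of the 9 ligand genes in each of the 5 libraries. Bmp4 is the largest block throughout, and the Gdf10 block is 3.85% to 7.14% of the bar in the inhibitor libraries, against 14% in E13.5 DMSO and 13.6% in E12.5 DMSO.

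Bmp2 and Bmp4 are the closest relatives of each other in the family and the ligands best known from bone and tooth induction. Bmp4 (chr14:46383520-46390669 on GRCm38, minus strand) had 65.4 and 70.2 CPM in the SB431542 columns, 57.7 and 43.7 CPM in the SIS3 libraries, 86.0 and 92.5 CPM in the E13.5 DMSO columns and 78.7 and 82.8 CPM in the E12.5 DMSO columns. Bmp2 had 43.8 and 40.05 CPM with SB431542, 29.4 and 36.8 CPM with SIS3, 29.3 and 32.2 CPM in E13.5 DMSO and 35.8 and 36.7 CPM in E12.5 DMSO. For Bmp4 both SIS3 libraries lay below every other library and the SB431542 library came next. For Bmp2 the SIS3 libraries spanned the E12.5 DMSO columns.

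Bmp5, Bmp6 and Bmp7 form a related subgroup: Bmp5 is known for skeletal patterning through the mouse short ear mutation, Bmp6 for iron control in the liver and Bmp7 for kidney and eye development. Bmp6 had 57.8 and 60.2 CPM in the SB431542 columns, 44.2 and 21.0 CPM in the SIS3 libraries, 48.7 and 44.75 CPM in the E13.5 DMSO columns and 54.2 and 52.5 CPM in the E12.5 DMSO columns. The SIS3 libraries were the lowest, but the first of them was close to E13.5 DMSO. Bmp7 had 18.0 and 18.8 CPM with SB431542, 9.17 and 19.2 CPM with SIS3, 11.2 and 11.99 CPM in E13.5 DMSO and 11.4 and 11.5 CPM in E12.5 DMSO. The SB431542 library was above both DMSO libraries, and the SIS3 libraries lay on either side of the DMSO libraries. Bmp5 (chr9:75775364-75900310, plus strand) had 9.8 and 10.65 CPM with SB431542, 4.003 and 2.23 CPM with SIS3, 13.47 and 8.68 CPM in E13.5 DMSO and 9.75 and 11.8 CPM in E12.5 DMSO. Both SIS3 libraries were below all other columns, which overlapped each other.

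Bmp3 and Gdf10, the gene for BMP3B, are paired by sequence apart from the other members, and Bmp3 is known as a ligand that counters other BMPs in bone. Gdf10 (chr14:33923587-33937983, plus strand) had 29.9 and 29.1 CPM in the SB431542 columns, 13.7 and 9.65 CPM in the SIS3 libraries, 63.9 and 64.1 CPM in the E13.5 DMSO columns and 61.9 and 61.4 CPM in the E12.5 DMSO columns. The columns fell into 3 levels that did not overlap, with SIS3 lowest, SB431542 between and both DMSO groups together at the top. Bmp3 had 20.1 and 19.5 CPM with SB431542, 11.8 and 8.80 CPM with SIS3, 23.9 and 25.2 CPM in E13.5 DMSO and 24.9 and 24.4 CPM in E12.5 DMSO. It had the same order of groups, with a narrower span.

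Gdf5 and Gdf6, known from joint formation, were the lowest members outside the SIS3 libraries, where Bmp5 per kilobase lay between them in library 1 and below both in library 2. Gdf6 had 4.19 and 4.26 CPM with SB431542, 3.17 and 3.5 CPM with SIS3, 1.94 and 1.48 CPM in E13.5 DMSO and 2.65 and 3.36 CPM in E12.5 DMSO. Gdf5 (chr2:155941023-155945367, minus strand) had 1.92 and 1.28 CPM with SB431542, 2.50 and 1.70 CPM with SIS3, 0 CPM in both E13.5 DMSO columns and 1.68 and 1.49 CPM in E12.5 DMSO. A count of 0 in the E13.5 library allows up to 0.171 CPM, for counting error only. Gdf5 was thus detected in every E12.5 library and was not detectable at this depth in the E13.5 library.

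**Figure D2:**
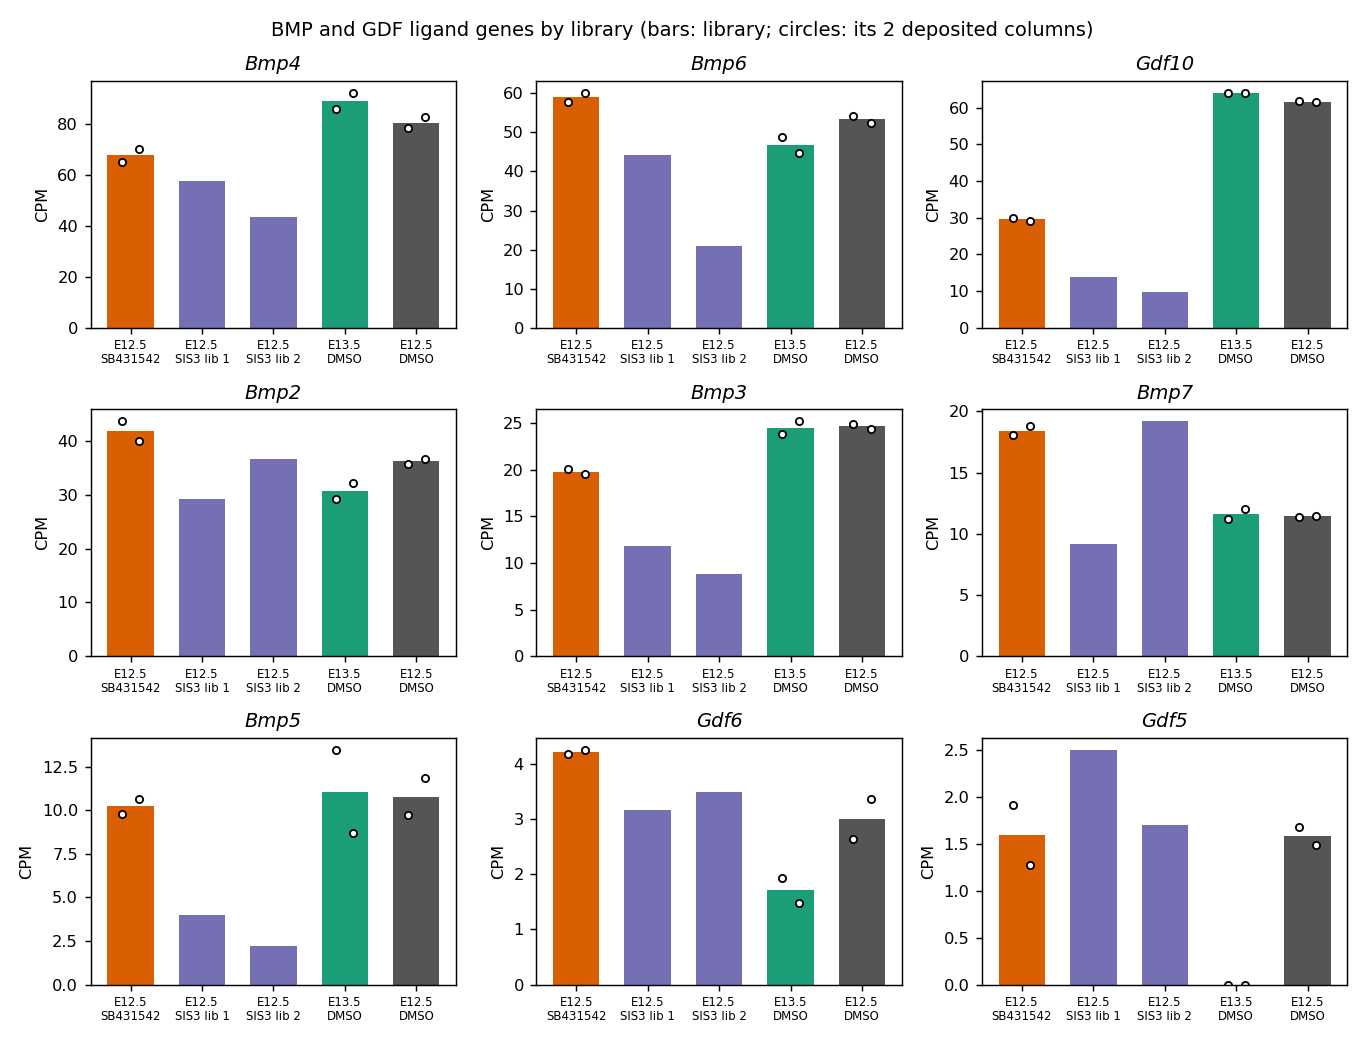
CPM of each ligand gene in the 5 libraries, with the groups in the order SB431542, SIS3, E13.5 DMSO and E12.5 DMSO; bars are libraries and circles are the 2 deposited columns where these were summed. Gdf10 is at 29.5 CPM with SB431542 and 13.7 and 9.65 CPM with SIS3, against 61.6 CPM in E12.5 DMSO, and Gdf5 has no bar at E13.5.

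With SB431542, no ligand gene passed the test against E12.5 DMSO (0 of 9 members, where 0 of 19022 genes, 0%, were called by the quasi-likelihood F test of edgeR, Benjamini-Hochberg adjusted). At an unadjusted p under 0.05, 235 genes (1.24%) were past the threshold, among them Gdf10 alone of the members. DESeq2 called 6 genes and 0 members. Gdf10 stood at 29.5 CPM with SB431542 against 61.6 CPM in DMSO, a log2 fold change of -1.12 (SE 0.43, 95% interval -2.03 to -0.20, unadjusted p = 0.0221, adjusted p = 1 in edgeR). The ratio of the 2 libraries was 0.479 (95% counting interval 0.441 to 0.52), which compares these libraries and not the conditions. Gdf10 was called here in 2 of 13 alternatives, both of which count the paired columns as separate replicates. Bmp7 stood at 18.4 CPM against 11.4 CPM, with a log2 fold change of 0.64 (SE 0.61, -0.68 to 1.96). Bmp4 had -0.31 (-1.11 to 0.50) and Bmp3 -0.37 (-1.48 to 0.74). The remaining members lay between -0.13 for Bmp5 and 0.44 for Gdf6. The median over the 9 was -0.04, against 0.00 over all genes tested. The comparison holds 1 library a group and borrows its spread from the SIS3 pair, and 20 epithelial markers summed to 65.9 CPM with SB431542 against 224.1 CPM in DMSO. The part of the epithelial difference in these values was not tested.

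With SIS3, Gdf10 fell, and no other ligand gene passed the adjusted threshold. It averaged 11.7 ± 2.85 CPM in the SIS3 libraries (SD, n = 2) against 61.6 CPM in the E12.5 DMSO library, a log2 fold change of -2.48 (SE 0.38, 95% interval -3.29 to -1.66, Benjamini-Hochberg adjusted p = 0.00229 by the quasi-likelihood F test of edgeR). Thus 1 of 9 members was called, where 3.82% of all genes tested were called (3.03% lower and 0.794% higher). A count of 1 among 9 genes is not read as a result about the family. The log2 difference was -2.17 in SIS3 library 1 and -2.67 in library 2, each without TMM scaling, so neither library decided the direction. Gdf10 stayed past the threshold in all 12 alternatives that gave a test, among them the fits that count paired columns as separate replicates. The highest adjusted p in edgeR was 0.0461, once trends with GC content and length were removed. Both SIS3 libraries were made with TruSeq and the DMSO library with SMARTer, so none of these checks can tell SIS3 from kit.

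Bmp5 and Bmp3 had the next largest differences and missed the threshold, although their 95% intervals and that of Bmp4 did not include 0. Bmp5 averaged 3.12 ± 1.26 CPM with SIS3 (SD, n = 2) against the DMSO library's 10.8 CPM (log2 fold change -1.88, SE 0.62, -3.22 to -0.54, adjusted p = 0.111 in edgeR). Bmp3 averaged 10.3 ± 2.15 CPM with SIS3 (SD, n = 2) against 24.7 CPM (log2 fold change -1.33, SE 0.45, -2.31 to -0.35, adjusted p = 0.125 in edgeR). Bmp4 averaged 50.7 ± 9.9 CPM with SIS3 (SD, n = 2) against 80.7 CPM, with -0.74 (SE 0.33, -1.45 to -0.04, adjusted p = 0.255 in edgeR). These 3 and Gdf10 had an unadjusted p under 0.05, as did 16.8% of all genes tested. Bmp5 was called in 3 of 12 alternatives and Bmp3 and Bmp4 in 2 each. Apart from Bmp5 without a filter on low counts, these calls came from the fits that count paired columns as separate replicates. Bmp6 had -0.78 (-1.83 to 0.27) and Bmp2 -0.20 (-0.98 to 0.57), and Bmp7, Gdf5 and Gdf6 had 0.24, 0.32 and 0.08. The median over the 9 was -0.74, against 0.00 over all genes tested.

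For Bmp6 and Bmp7 the SIS3 libraries differed from each other. Against the DMSO library, Bmp6 had a log2 difference of -0.27 in SIS3 library 1 and -1.34 in library 2, and Bmp7 had -0.32 and 0.75. The fitted value of Bmp7 was 0.65 without library 1 and -0.37 without library 2, and that of Bmp6 was -1.44 and -0.32. Among cell type lists, the epithelial markers summed to 98.9 and 419.1 CPM in SIS3 libraries 1 and 2, against 224.1 CPM in DMSO, and the 13 chondrogenic markers to 604.3 and 1465 CPM against 910.1 CPM. Bmp7, the epithelial sum and the chondrogenic sum were thus below the DMSO library in SIS3 library 1 and above it in library 2. The SB431542 library did not share this pattern. There Bmp7 was above DMSO (18.4 against 11.4 CPM), while the epithelial and chondrogenic sums were below it (65.9 and 656.2 CPM). No epithelial or chondrogenic marker passed the test, of 19 and 13 tested, and the part of these cells in the Bmp7 values was not tested.

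Several other cell type lists were low in both SIS3 libraries. The 15 endothelial markers summed to 61.4 and 63.3 CPM with SIS3 against 488.9 CPM, and 13 of 15 fell in edgeR's test. Of all genes tested, 3.03% fell. The 12 macrophage markers summed to 16.5 and 13.9 CPM against 76.8 CPM (5 of 12 fell), with 1 of them at 0 in library 1 and 3 at 0 in library 2. The 12 muscle markers summed to 295.7 and 247.7 CPM against 803.2 CPM (3 of 12 fell), and the 11 osteogenic markers to 511.9 and 425.7 CPM against 1050 CPM (4 of 11 fell). The mesenchyme markers summed to 7845 and 6332 CPM against 13655 CPM (4 of 15 fell: Col1a1, Col3a1, Vim and Dlx2). The largest parts of the DMSO sum were Col3a1 (2541 and 1802 CPM with SIS3 against 4626 CPM) and Col1a1 (610.4 and 606.3 CPM against 3334 CPM). Lhx6, Lhx8 and Twist1 had log2 fold changes of -0.10, 0.11 and 0.17, and 13 of the 15 markers had negative values. None of these lists had a marker that rose. Their part in the Gdf10 difference was not tested. With SB431542, the endothelial and muscle sums were 558.6 and 865.6 CPM, above those of the DMSO library. The macrophage, osteogenic and mesenchyme sums were 68.9, 827 and 11104 CPM, below those of the DMSO library. Their part in the Gdf10 value with SB431542 was not tested.

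**Figure D3:**
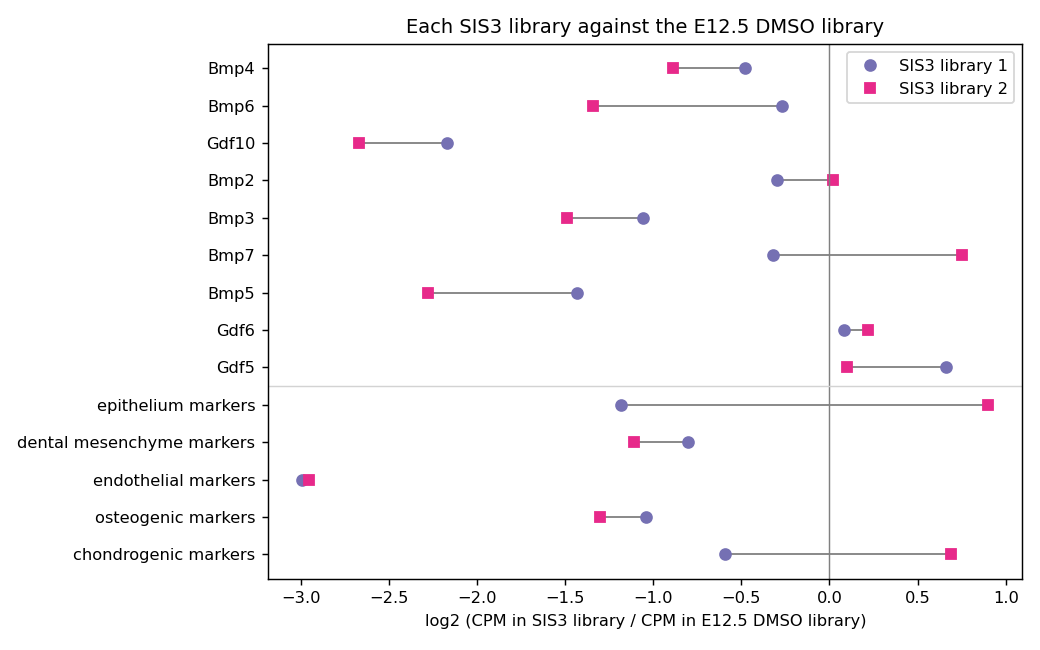
The log2 ratio of CPM in each SIS3 library to CPM in the E12.5 DMSO library, for the 9 ligand genes (above the grey line) and 5 summed marker lists (below it); circles are library 1 and squares library 2. Gdf10 lies at -2.17 and -2.67, whereas Bmp7 lies at -0.32 and 0.75 and the epithelial sum at -1.18 and 0.90.

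Between SIS3 and SB431542 no ligand gene was called (0 of 9, where 2.44% of all genes tested were called, with 1.95% lower and 0.499% higher). Gdf10 averaged 11.7 ± 2.85 CPM with SIS3 (SD, n = 2) against 29.5 CPM with SB431542, a log2 fold change of -1.36 (SE 0.38, -2.18 to -0.55, Benjamini-Hochberg adjusted p = 0.0769 by the quasi-likelihood F test of edgeR). It was called in 3 of the 12 alternatives that gave a test, namely the fits that count paired columns as separate replicates and the fit without a filter. Bmp5 had -1.75 (adjusted p = 0.18 in edgeR) and Bmp3 -0.96 (adjusted p = 0.345 in edgeR). Those 3 members had an unadjusted p under 0.05, as did 14.3% of all genes tested. DESeq2 called 466 of 19022 genes and 0 members. A difference between the inhibitors was therefore not shown for any member, and the interval for Gdf10 did not include 0 before adjustment. Both inhibitors are set against the same DMSO library, so their values against DMSO are not independent.

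Between E13.5 and E12.5, both in DMSO, no ligand gene was called (0 of 9, where 5.23% of all genes tested were called, with 4.06% higher and 1.17% lower). The comparison holds 1 library a stage and borrows its spread from the SIS3 pair. Gdf5 had 0 counts at E13.5 against 49 counts at E12.5, which is at least 9.24-fold lower when the E13.5 library is set at the floor of 3 counts. Its Benjamini-Hochberg adjusted p was 0.0571 by the quasi-likelihood F test of edgeR, just above the threshold of 0.05. Gdf5 was called in 3 of 11 alternatives, namely the fits that count paired columns as separate replicates and the fit without a filter. Of 720 genes with 40 to 60 counts in the E12.5 DMSO library, 79 (11%) were at 0 in the E13.5 library and 3 (0.417%) in the SB431542 library. In the SIS3 libraries 56 (7.78%) and 61 (8.47%) were at 0. The SIS3 libraries, which have smaller totals than the E13.5 library and were made with a different kit, held 15 and 16 counts of Gdf5. Why the E13.5 library was at 0 was not tested. Gdf6 stood at 1.71 CPM at E13.5 against 3.002 CPM at E12.5 (log2 fold change -0.78, SE 0.90). The other 7 members lay between -0.21 for Bmp2 and 0.17 for Bmp4, whose interval was -0.63 to 0.98. Gdf10 had 64.0 CPM at E13.5 against 61.6 CPM at E12.5 (log2 fold change 0.08, SE 0.43). The median over the 9 was 0.02, against 0.00 over all genes tested. Gdf5 was the only member with an unadjusted p under 0.05, as had 24.3% of all genes tested. DESeq2 called 569 of 19022 genes and 0 members.

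**Figure D4:**
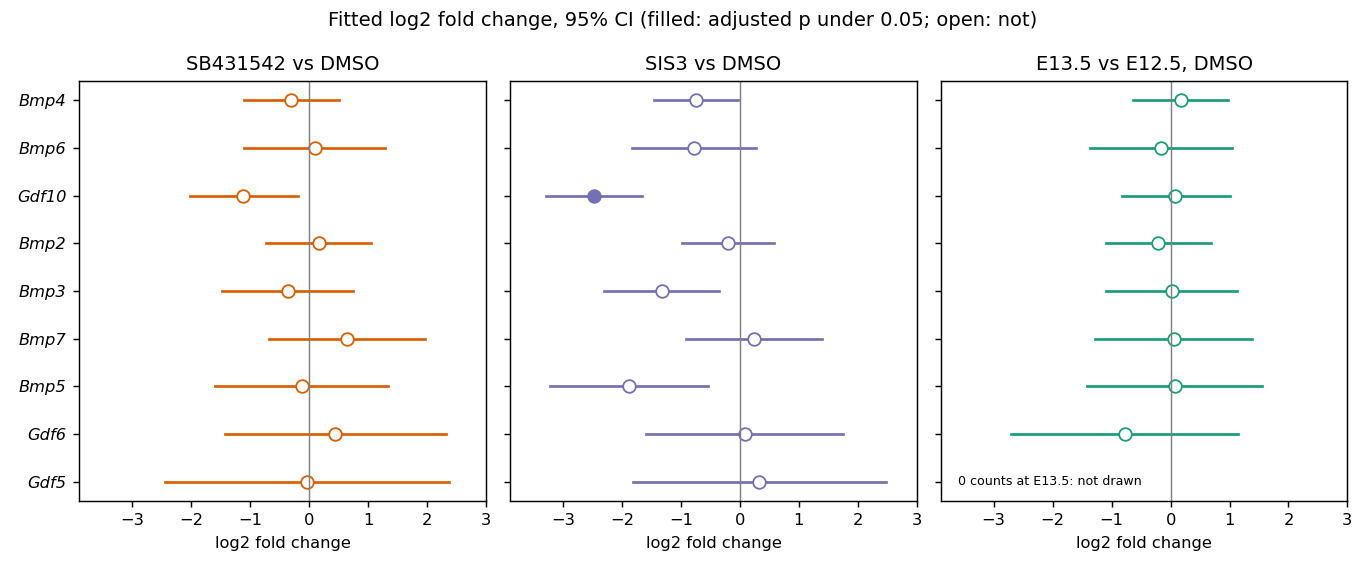
Fitted log2 fold changes with 95% confidence intervals for the 9 ligand genes in 3 comparisons, SB431542 vs DMSO, SIS3 vs DMSO and E13.5 vs E12.5 DMSO. The only filled point (adjusted p under 0.05) is Gdf10 with SIS3 at -2.48; Gdf5 at E13.5, with 0 counts, is not drawn.

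The lists of other pathway genes were set beside the ligands. With SIS3, of 11 receptors tested, 1 rose and 1 fell, where 0.794% of all genes tested rose and 3.03% fell. Counts this small in the pathway lists are not read as results about a family. Bmpr1b, a type I BMP receptor, averaged 21.5 ± 2.59 CPM with SIS3 (SD, n = 2) against 4.49 CPM (log2 fold change 2.19, adjusted p = 0.0465 in edgeR). Eng, a co-receptor best known from endothelium, averaged 6.67 ± 1.18 CPM with SIS3 (SD, n = 2) against 28.1 CPM (-2.15, adjusted p = 0.0123 in edgeR). Eng was called in 9 of 12 alternatives and Bmpr1b in 6 of 12. The low endothelial marker sums above stand beside the value of Eng.

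Of 17 antagonists tested with SIS3, 2 fell and none rose, where 3.03% of all genes tested fell and 0.794% rose. Sostdc1, an extracellular BMP inhibitor known from tooth patterning, averaged 17.6 ± 1.24 CPM with SIS3 (SD, n = 2) against 62.1 CPM (log2 fold change -1.89, adjusted p = 0.00393 in edgeR). It was called in all 12 alternatives that gave a test. Fst, the follistatin gene, which binds activins and some BMPs, averaged 13.9 ± 1.23 CPM with SIS3 (SD, n = 2) against 35.7 CPM (-1.44, adjusted p = 0.0409 in edgeR, called in 5 of 12). Of 7 proteases that mature these ligands or free them, 2 fell. Pcsk6 had -2.14 (adjusted p = 0.00327 in edgeR, 15.2 ± 3.37 CPM, SD, n = 2, with SIS3 against 64.2 CPM) and Furin -1.32 (adjusted p = 0.0313 in edgeR, 60.5 ± 15.9 CPM, SD, n = 2, with SIS3 against 143.3 CPM). Both encode proprotein convertases. Pcsk6 was called in 11 of 12 alternatives and Furin in 7 of 12.

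Of 16 BMP target genes tested with SIS3, 1 fell, where 3.03% of all genes tested fell. Dlx3, a homeobox gene of teeth and skin, had 1.17 and 4.24 CPM with SIS3 against 22.0 CPM (log2 fold change -3.04, adjusted p = 0.025 in edgeR, called in 8 of 12). None of 6 Smads and none of 9 other ligands passed. The most abundant of these were Smad5 with -0.04, Smad4 with -0.12, Gdf11 with 0.21 and Gdf7 with 0.37. The medians over the lists were 0.04 for receptors, -0.35 for Smads, -0.46 for antagonists, -0.12 for proteases, -0.40 for targets and 0.21 for other ligands.

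In the comparison of SIS3 with SB431542, Eng (-2.27, adjusted p = 0.0118 in edgeR), Pcsk6 (-1.85, adjusted p = 0.00924 in edgeR) and Furin (-1.34, adjusted p = 0.0366 in edgeR) were lower with SIS3, in the same SIS3 libraries as above. Eng and Pcsk6 were called in 9 of 12 alternatives and Furin in 6 of 12. Of all genes tested, 1.95% were called lower in this comparison. No other ligand, Smad, antagonist or target was called there. The most abundant of them had log2 fold changes of -0.41 (Gdf11), -0.45 (Gdf7), 0.14 (Smad5), -0.19 (Smad4), 0.10 (Fstl1), -0.22 (Twsg1), -0.01 (Msx1) and 0.20 (Tbx3). With SB431542 against DMSO, none of the pathway genes passed the test in edgeR. The most abundant had -0.30 (Bmpr2), -0.07 (Bmpr1a), -0.18 (Smad5), 0.07 (Smad4), -0.73 (Fstl1), -0.12 (Twsg1), -0.14 (Bmp1), -0.23 (Pcsk5), -0.61 (Msx1) and 0.24 (Tbx3) as log2 fold changes.

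Between E13.5 and E12.5, 1 of 17 antagonists tested was called higher and 1 of 9 other ligands lower. Of all genes tested, 4.06% were called higher and 1.17% lower. Each stage has 1 library, so these p-values borrow their spread from the SIS3 pair. Sostdc1 stood at 192.7 CPM at E13.5 against 62.1 CPM at E12.5 (log2 fold change 1.66, adjusted p = 0.0228 in edgeR, called in 9 of 12). Mstn, the myostatin gene known from skeletal muscle, had 0 counts at E13.5 against 79 counts at E12.5, at least 14.9-fold lower at the floor of 3 counts (adjusted p = 0.0236 in edgeR, called in 6 of 11). Of the 12 muscle markers, 4 were at 0 counts at E13.5 and none at E12.5, and 3 of 12 fell in edgeR's test (Myod1, Pax7 and Tnnc2), while none rose. The summed levels were 826.5 CPM at E13.5 against 803.2 CPM at E12.5. Ttn alone held 676.4 and 597.3 CPM of these sums. The part of muscle cells in the Mstn value was not tested. No receptor, Smad, protease or target passed, and the most abundant of them (Bmpr2, Bmpr1a, Smad5, Smad4, Bmp1, Pcsk5, Msx1 and Tbx3) lay between -0.79 for Pcsk5 and -0.04 for Bmpr2.

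The members were also set against 11454 other genes by the root mean square difference of their centred log2 profiles over the 5 libraries. Bmp2 was nearest to Degs1 (0.042) and Fdft1 (0.043), Bmp4 to Cbr4 (0.059) and Mrps11 (0.065), and Bmp3 to Bag3 (0.053) and Tnnt1 (0.086). Bmp5 was nearest to Adamts2 (0.076) and H1f10 (0.115), Bmp6 to Spry4 (0.088) and Rgl1 (0.096), and Bmp7 to Gdf11 (0.087) and Gdf7 (0.094). Gdf5 was nearest to Gpr50 (0.064) and Faim2 (0.112), Gdf6 to Asb8 (0.056) and Ndnf (0.057), and Gdf10 to Clec11a (0.117) and Slc37a2 (0.142). For Bmp7 both nearest genes were themselves ligand genes of the wider family. Among the 9 members the closest pair was Bmp3 and Bmp4 (0.241), the farthest Gdf5 and Gdf10 (1.8). With 5 libraries such distances describe these profiles only.

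Some members share sequence with a gene on the opposite strand, and the labels do not say whether counting used strand. Of the stretches of 31 bases in Bmp5 transcripts, 46.1% also occur in Gm26903, an antisense gene. Gm26903 is absent from the deposited counts, so its level could not be checked. For Gdf5, 39.7% occur in Gm15557, which had 2 counts in E12.5 DMSO and 0 in the other libraries. For Bmp6, 5.01% occur in Txndc5, which had 7016 counts in E12.5 DMSO against 1652 for Bmp6. Txndc5 had 4907 counts with SB431542, 539 and 1293 with SIS3 and 3184 in E13.5 DMSO. The counts of Bmp5, Bmp6 and Gdf5 are therefore uncertain as counts of the ligand genes alone, while the shared part was 3.33% for Bmp4 and smaller for Gdf10.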

How the data were processed

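Whole molar germs were profiled by RNA-seq in 8 deposited columns of 4 groups. What the authors deposited are estimated counts, in whole numbers and with no scaling across libraries. Per the submitters' processing notes the tools were Salmon, HISAT2, SAMtools, deepTools and DESeq2, with the build mm10. No version, annotation or counting option was given in the sources used here. Per the labels, 2 library kits were used, and SIS3 libraries were the ones made with TruSeq RNA kit v2.

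From these counts, the paired columns of 3 groups, which had near-equal totals and differed less than the SIS3 pair in every class of genes, were summed, leaving 5 libraries. The labels do not say that they are 1 library each. Counts were tested with edgeR 4.0.16 (R 4.3.3; TMM scaling, filterByExpr, robust quasi-likelihood F test, group as the only factor, Benjamini-Hochberg adjustment over 19022 genes at 0.05). The SIS3 pair gives the fit its 1 residual degree of freedom, 12.5 are borrowed across genes, and lone libraries are assumed to vary like that pair. The common coefficient of biological variation was 29.3%. Half-widths of 95% intervals had a median of 1.17 (SB431542), 0.99 (SIS3), 1.14 (stage) and 1.00 (SIS3 against SB431542) on the log2 scale. CPM were computed from column or library totals. Counting intervals and the floor of 3 counts (0.0969 to 0.5 CPM) cover counting error only.

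The edgeR script was tested on simulated counts. Their spread was taken from this same fit, so they cannot show whether lone libraries vary like the SIS3 pair. Gene positions come from GENCODE M21 (35437 IDs matched) and promoters from RefSeq (GRCm38.p6). Alternatives were DESeq2 1.42.0, DESeq2 size factors, other filters, GC and length trends, fewer groups and left-out columns. Same-numbered columns of different groups did not deviate together (correlations of -0.018 to 0.026 over 13972 genes). Where paired columns are divisions of 1 library, correlations near 0 would follow from the division alone. They therefore cannot show whether same-numbered columns share an animal, litter or day. The members and lists were chosen with earlier results of these data known. All 9 members are named. Of each pathway list, genes called are named, and otherwise the 2 with the highest mean CPM. For each member the 2 genes nearest in centred log2(CPM + 0.5) profile are named, among genes with a mean CPM of at least 5 that are not predicted genes, pseudogenes or receptor families.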

Additional observations from a re-analysis of the deposited data

How the results depend on the processing

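Gdf10 with SIS3 stayed lower and past the threshold in all 12 alternatives that gave a test. Its log2 fold change was -2.77 to -2.22 with the left-out SIS3 libraries included. Leaving out a SIS3 library leaves no residual degrees of freedom and gives a value with no test. No alternative could tell SIS3 from kit. Of 469 alternative values of members, 20 passed the threshold that the reported fit missed and 12 had the opposite sign, 10 with a test and 2 without. With all 8 columns as replicates and no block, members called were 1 for SB431542, 4 for SIS3, 1 for the stage and 3 for SIS3 against SB431542, and genes called were 259, 6764, 9742 and 5805. With the replicate block these were 1, 4, 1 and 4 members and 83, 6194, 9260 and 5191 genes. The labels tie these numbers to no shared animal, litter or day, and both fits count paired columns as separate. Without a filter on low counts, members called were 2 for SIS3, 1 for the stage and 1 for SIS3 against SB431542, and genes called 27 (SB431542), 1414, 2062 and 1027. Genes called for SIS3, the stage and SIS3 against SB431542 (727, 995 and 465 in the reported fit) were 130, 192 and 85 at a mean CPM of at least 5, 332, 61 and 196 without predicted genes, pseudogenes and receptor families, and 133, 93 and 83 with GC and length trends removed. With only the libraries of both groups, they were 232 for SIS3 and 166 for SIS3 against SB431542. DESeq2 called 6 genes for SB431542 and 569 for the stage. Without the E13.5 library, an alternative chosen after seeing the data, the counts were 461 and 296. Leaving out 1 column at a time gave 0 to 1 genes for SB431542, 641 to 708 for SIS3, 399 to 847 for the stage and 412 to 438 for SIS3 against SB431542, with 0, 1, 0 and 0 members throughout. The stage count fell to 419 or 399 without either E13.5 column and to 662 without E12.5 DMSO column 2. The cause of these moves was not tested.

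Bmp7 with SIS3 against DMSO, 0.24 as reported, was -0.37 without SIS3 library 2, and with SIS3 against SB431542, -0.39 as reported, it was 0.02 without SIS3 library 1. The other values that changed sign were smaller in the reported fit. Gdf5 with SB431542 ranged from -0.36 (without SB431542 column 1) to 0.22 (without SB431542 column 2) and was 0.05 without DMSO column 1, Bmp5 with SB431542 was -0.26 without DMSO column 1 and 0.02 without DMSO column 2, and Gdf6 with SIS3 became -0.07. In the stage comparison Bmp3 became -0.01 without a filter and without E13.5 column 2 and -0.32 with trends removed (0.07 without E13.5 column 1), and Bmp5 -0.71 with trends removed, -0.28 without E13.5 column 1, 0.36 without E13.5 column 2 and -0.04 without DMSO column 1. Among pathway genes, Smad5 with SIS3 became 0.00 and 0.01, Smad4 0.03, Bmpr2 in the stage comparison 0.00, 0.01, 0.03 and 0.06, and Msx1 between SIS3 and SB431542 0.01 and 0.27. Low depth limits Gdf5 and Gdf6, and Bmp5 in SIS3 rests on 24 and 21 counts.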

Other observations

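The other BMP and GDF-type ligands (12 genes, of which 9 passed the filter) summed to 85.9 CPM with SB431542, 50.7 and 78.0 CPM with SIS3, 46.8 CPM in E13.5 DMSO and 51.5 CPM in E12.5 DMSO. Gdf11, known from axial patterning, made up most of this with 62.6 CPM with SB431542, 33.9 and 62.1 CPM with SIS3, 35.3 CPM in E13.5 DMSO and 39.4 CPM in E12.5 DMSO. The SB431542 library and SIS3 library 2 were the high ones. Gdf7, known from the roof plate of the spinal cord, had 12.3 CPM with SB431542, 6.51 and 11.7 CPM with SIS3, 7.31 CPM in E13.5 DMSO and 6.68 CPM in E12.5 DMSO, in the same order of libraries at its top. With SB431542 the log2 fold changes were 0.62 (SE 0.45) for Gdf11 and 0.82 (SE 0.66) for Gdf7, and neither passed the test. Neural and Schwann cell markers (12 genes) summed to 63.0 CPM with SB431542, 57.2 and 67.2 CPM with SIS3, 55.0 CPM in E13.5 DMSO and 75.1 CPM in E12.5 DMSO, and none of the 11 tested passed in the comparisons with DMSO.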
